A study of Mus musculus with 5 samples.

Results

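Potassium channel genes were described here as the reference genes whose symbol begins with Kcn, the letters of a subfamily and a number. Of the 22071 reference genes in the deposited expression table, 92 met this rule, and their 133 RefSeq transcripts were summed by symbol. They cover 20 subfamilies of pore-forming and auxiliary subunits. RNA carrying a poly(A) tail was sequenced from microdissected, snap-frozen brain tissue of adult male C57BL/6 mice of wild-type genotype. In adults, new neurons arise or settle in the dentate gyrus (DG), the olfactory bulb (OB) and the subventricular zone (SVZ), which form the 3 neurogenic regions of the study, and the striatum (STR) served as the tissue without neurogenesis. Only the SVZ was sampled more than once, in 2 biological replicates, so the single samples of DG, OB and STR have no replicate error of their own. All groups share genotype, sex, strain and handling, and the sources used here do not give the number of animals behind a sample.

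Potassium channels let potassium leave or enter the cell along its gradient and so set the resting potential, the length of an action potential and the firing rate. A voltage-gated (Kv) channel is built from 4 pore-forming alpha subunits, which may be joined by cytoplasmic Kv beta subunits, calcium-binding KChIP proteins or small membrane-spanning Kcne proteins. Inward rectifiers (Kir) and leak channels act near rest, and channels of the Slo and SK groups open with intracellular calcium or sodium.

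Levels are given as FPKM, a count of sequenced fragments divided by transcript length and by the size of the library, which allows genes of different length to be compared. Differences between regions are on the scale log2(FPKM + 1), where 1 unit is a 2-fold difference and folds of low genes are understated. The libraries fell into sets that cut across the regions. Gapdh read 414 to 563 FPKM in OB, DG and SVZ sample 1 but 32.4 FPKM in SVZ sample 2 and 39.5 FPKM in STR. RefSeq transcripts under 200 bases reached 1 FPKM in 14 to 24 cases in the first set and in 153 and 161 cases in the second. The number of transcripts listed at 0 was 16725 in DG and lay between 9564 and 10807 for the rest. Because the SVZ had a sample in each set, each difference of OB or DG from STR was also taken through the SVZ pair, as the region minus SVZ sample 1 plus SVZ sample 2 minus STR, and this value is called bridged. The tissue labels matched their defining markers: the summed ependymal markers were at 192 and 81.2 FPKM in the SVZ pair and at 2.20 to 9.81 elsewhere, and 5 olfactory bulb neuron markers summed to 1146 in OB and to 6.30 to 18.1 elsewhere. The 6 striatal projection neuron markers summed to 2621 and 1321 FPKM in the SVZ pair and to 1751 in STR, so the SVZ dissections carried these transcripts at levels like those of the striatum.

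Most of the genes were detected in every region. OB had 70 members at 1 FPKM or more, DG 69, the mean of the SVZ pair 62 and STR 61, while 4, 15, 3 and 6 of the 92 were listed at 0 there. Their levels summed to 2184 FPKM in OB, 1941 in DG, 1649 in STR and 1483 in the mean of the SVZ pair. The leading member differed between regions. It was Kcnab1, a Kv beta subunit that can give a channel fast inactivation, in the SVZ and STR, the inward rectifier Kcnj4 in OB, and Kcnab2, another Kv beta subunit, in DG. Kcnip2, a KChIP partner of the Kv4 channels, was at 80.8 FPKM or more in every library.

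**Figure D1:**
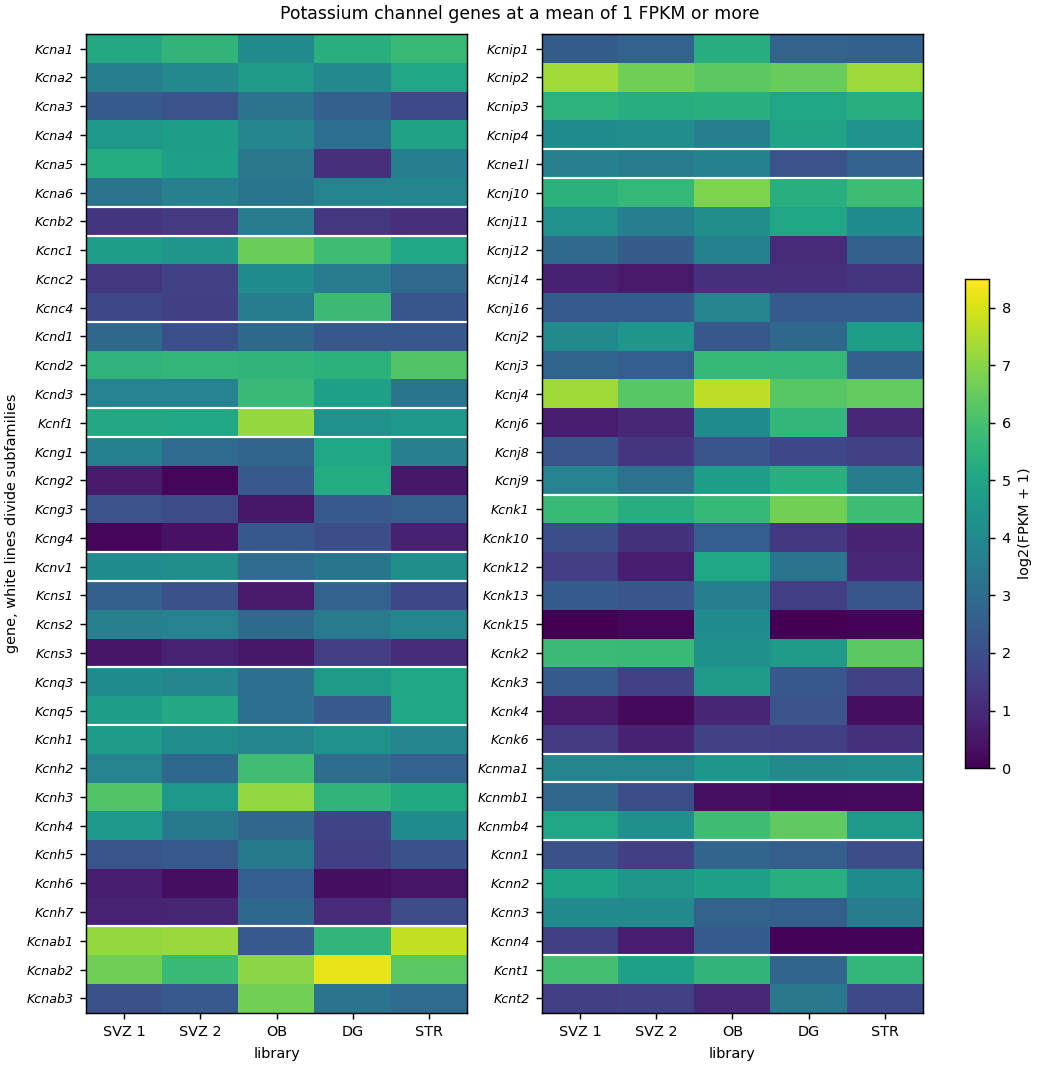
Level of 68 of the 72 members with a mean of 1 FPKM or more over the 4 regions, as log2(FPKM + 1) by library, ordered by subfamily. OB and DG carry the most isolated bright cells, such as Kcnab3 at 102 FPKM in OB and Kcng2 at 36.8 FPKM in DG.

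A member entered the comparisons when its mean over the 4 regions was 1 FPKM or more, which 72 of the 92 passed. Among those just inside were Kcnj14 at 1.16 and Kcns3 at 1.03 FPKM, and just outside were Kcnj13 at 0.863, Kcnu1 at 0.805 and Kcne4 at 0.699 FPKM. The 20 members left out never exceeded 2.05 FPKM, the level of Kcnj13 in OB, and Kcnk16 was listed at 0 in all 5 libraries. They include Kcnu1, the sperm channel Slo3, and 4 of the 5 Kcne genes. A filter on the mean keeps a low gene that is high in 1 region, so the counts that follow describe the 72 and support no claim about the rest.

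Between OB and STR, 30 of the 72 members (41.7%) stood at least 1 log2 unit higher in OB, beside 29.8% of the 13454 reference genes tested, and 10 (13.9%) stood as far lower, beside 7.36%. The median difference was 0.62 for the members and 0.50 for all reference genes. After that shift was subtracted, 19 members (26.4%) stood higher, beside 14.2% of genes, and 20 (27.8%) lower, beside 14.6%. Bridging gave 24 higher (33.3%), beside 10.3%, and 13 lower (18.1%), beside 5.68%. The balance of higher and lower members therefore depended on how these libraries were scaled, while the members' share exceeded that of all genes in both directions each time. Between DG and STR, 15 members (20.8%) stood higher in DG, beside 16.7%, and 11 (15.3%) lower, beside 8.7%. The medians were 0.04 for the members and 0.24 for all reference genes. After the latter was subtracted, 14 members (19.4%) stood higher, beside 10.9%, and 13 (18.1%) lower, beside 12.1%. Bridging gave 12 higher (16.7%), beside 6.18%, and 13 lower (18.1%), beside 9.37%, so here too the balance depended on scaling. Between the SVZ and STR, 3 members (4.17%) stood higher, beside 6.03%, and 4 (5.56%) lower, beside 1.64%, with medians of -0.11 and 0.22. With SVZ sample 1 alone 7 (9.72%) stood higher, beside 17.9%, and 3 (4.17%) lower, beside 3.1%. With SVZ sample 2 alone 2 (2.78%) stood higher, beside 3.31%, and 4 (5.56%) lower, beside 0.981%.

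Between the SVZ and OB, 12 members (16.7%) stood higher in the SVZ, beside 7.15%, and 28 (38.9%) lower, beside 14.5%, with medians of -0.57 and -0.24. With SVZ sample 1 alone 13 (18.1%) stood higher, beside 6.71%, and 24 (33.3%) lower, beside 8.71%. With SVZ sample 2 alone 11 (15.3%) stood higher, beside 8.44%, and 34 (47.2%) lower, beside 26.8%. Between the SVZ and DG, 13 members (18.1%) stood higher in the SVZ, beside 10.5%, and 19 (26.4%) lower, beside 7.8%, with medians of -0.20 and 0.01. With SVZ sample 1 alone 13 (18.1%) stood higher, beside 11.3%, and 18 (25%) lower, beside 5.4%. With SVZ sample 2 alone 12 (16.7%) stood higher, beside 10.4%, and 19 (26.4%) lower, beside 15.3%. Between OB and DG, 23 members (31.9%) stood higher in OB, beside 13.4%, and 16 (22.2%) lower, beside 5.08%, with medians of 0.26 and 0.24. These comparisons share libraries and are not independent of one another. In bulk tissue, fewer cells of a type and less RNA per cell cannot be told apart.

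limma was fitted to all 14584 genes and lncRNA loci in the 5 libraries, with Benjamini-Hochberg adjustment over all of them. Kcnk15, Kcnh6, Kcnk4 and Kcnmb1 passed the filter on the mean only through the region where each was high. Any limma call of these members, here or after rescaling, rests on the libraries that admitted it. The only residual degree of freedom of limma comes from the SVZ pair. OB, DG and STR are therefore assumed to vary like that pair, and limma p-values measure no spread within those regions. For SVZ minus OB it called 3 members at an adjusted p under 0.05, beside 0.638% of all genes and loci, namely Kcnab1, Kcnab3 and Kcnk15. For SVZ minus DG it called 2, beside 0.562%, namely Kcng2 and Kcnj6, and for OB minus DG it called Kcnk15 alone, beside 0.281%. For OB minus STR it called no member and no gene (0%), for DG minus STR no member and 5 genes (0.0343%), and for SVZ minus STR no member and no gene (0%). At an unadjusted p under 0.05 it counted 28, 22 and 4 of the 72 members in those comparisons, and 2090, 1641 and 560 of all genes and loci. All 6 member calls were lost without the filter on low values, without the variance trend or with a pseudocount of 0.1, and all were kept after median ratio scaling. That scaling raised the limma calls at an adjusted p under 0.05 to 3 members for OB minus STR, beside 2% of all genes and loci, namely Kcnab1, Kcnk12 and Kcnk15. It called 3 for DG minus STR, beside 1.99%, namely Kcnc4, Kcng2 and Kcnj6, and none for SVZ minus STR. It called 12 for SVZ minus OB, beside 4.48%, 11 for SVZ minus DG, beside 4.75%, and 5 for OB minus DG, beside 2.45%.

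The Kv beta subunits exchanged places between the regions. Kcnab1 was at 141.5 and 147 FPKM in the SVZ pair, 4.18 in OB, 47.4 in DG and 209 in STR. OB was far below every other library. SVZ minus OB was 4.81 ± 0.46 log2 units (SE) with a limma adjusted p of 0.0452, which ranged from 0.00990 to 0.152 over the alternative settings, and both SVZ samples showed the direction. Kcnab3 ran the other way, at 3.29 and 4.14 FPKM in the SVZ pair, 102 in OB, 8.54 in DG and 6.86 in STR. SVZ minus OB was -4.45 ± 0.46, with a limma adjusted p of 0.0493 that ranged from 0.0154 to 0.171 over the alternatives. Kcnab2 was at 99.2 and 51.7 FPKM in the SVZ pair, 130.5 in OB, 296 in DG and 79.8 in STR. It was the top Kv beta subunit of OB and DG, with 55.1% and 84.1% of the summed level, while Kcnab1 held 64.6% in the SVZ and 70.7% in STR. DG minus STR was 1.88 ± 0.71 for Kcnab2 and 0.95 when bridged, below the 1-unit mark.

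**Figure D2:**
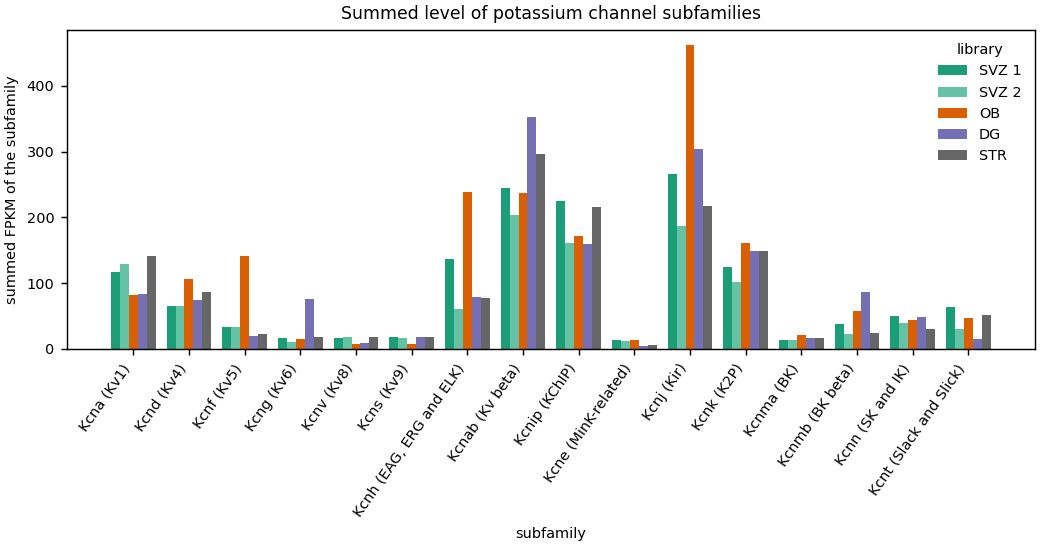
Summed FPKM of selected subfamilies in each of the 5 libraries. The Kir sum of OB is 462 FPKM and no other library exceeds 303, while the Kv6 sum of DG is 75.5 FPKM and no other library exceeds 18.2.

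Among the Kv1 alpha subunits, which form low-threshold channels of axons and terminals, no single pattern held. Kcna1 was at 34.0 and 46.1 FPKM in the SVZ pair, 16.3 in OB, 41.1 in DG and 52.6 in STR, with its lowest value in OB. Kcna2 was at 11.4 and 15.1 FPKM in the SVZ pair, 23.4 in OB, 15.1 in DG and 31.9 in STR, and SVZ minus STR was -1.23 ± 0.47 (limma adjusted p = 0.998). Kcna5, a delayed rectifier best known from heart and vascular smooth muscle, was at 36.8 and 26.9 FPKM in the SVZ pair, 9.40 in OB, 1.24 in DG and 11.8 in STR. Both SVZ samples lay above every other library and DG lay below all of them. SVZ minus DG was 3.85 ± 0.48 and SVZ minus STR was 1.35 ± 0.48, and limma called neither (adjusted p = 0.0662 and 0.998). Kcna1, Kcna6 and Kcna5 lie together on mm9 at chr6:126586481-126595819, chr6:126658347-126691619 and chr6:126482569-126485573. Kcna6 was at 8.74 to 13.8 FPKM in all 5 libraries, so these neighbours had 3 different profiles.

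Kv3 alpha subunits allow fast repetitive firing by quick repolarisation. Of them, Kcnc1, Kcnc2 and Kcnc4 each stood at least 1 unit above the SVZ mean in OB and in DG, with or without median ratio scaling. Kcnc4, which encodes a rapidly inactivating Kv3 subunit, was at 2.59 and 2.08 FPKM in the SVZ pair, 11.04 in OB, 55.3 in DG and 3.80 in STR. DG lay above OB, and OB above the other 3 libraries. DG minus STR was 3.55 ± 0.52 (limma adjusted p = 0.1135) and 3.33 when bridged. Kcnc1, a subunit typical of fast-spiking neurons, was at 25.3 and 20.6 FPKM in the SVZ pair, 94.4 in OB, 57.1 in DG and 31.0 in STR. Kcnc2 was at 1.58 and 2.23 FPKM in the SVZ pair, 16.7 in OB, 10.4 in DG and 6.69 in STR, and it was the single member at least 1 unit lower in the SVZ than in each other region, where 0.149% of reference genes were, or 0.126% when bridged.

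Kv2 channels carry much of the somatic delayed rectifier current, and the Kv5, Kv6, Kv8 and Kv9 subunits are silent alone and modify Kv2 when they assemble with it. The modifiers differed in how far they varied between regions. Kcnf1, the Kv5 gene, was at 33.7 and 32.9 FPKM in the SVZ pair, 141.5 in OB, 19.0 in DG and 21.9 in STR. OB minus DG was 2.83 ± 0.52 (limma adjusted p = 0.134), and OB minus STR was 2.64, or 2.60 when bridged. Kcng2, a Kv6 gene, was at 0.532 and 0.0943 FPKM in the SVZ pair, 4.13 in OB, 36.8 in DG and 0.459 in STR. SVZ minus DG was -4.87 ± 0.42, with a limma adjusted p of 0.0407 that ranged from 0.00664 to 0.275 over the alternatives, and both SVZ samples lay far below DG. Kcng1 was at 12.2 and 6.93 FPKM in the SVZ pair, 5.60 in OB, 31.4 in DG and 12.1 in STR. The summed Kv6 level was 75.5 FPKM in DG and 10.2 to 18.2 in the other libraries, and it stayed highest in DG after median ratio scaling. Kcnv1, a Kv8 gene, was at 16.3 and 17.4 FPKM in the SVZ pair, 6.87 in OB, 8.91 in DG and 17.9 in STR. Kcns2, a Kv9 gene, was at 6.66 to 14.01 FPKM, lowest in OB.

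The Kv4 channels carry the A-type current of cell bodies and dendrites, together with KChIP proteins. Kcnd2 differed little, at 42.7 to 72.9 FPKM over the libraries with STR highest. Kcnd3 was at 12.7 FPKM in both SVZ samples, 53.5 in OB, 27.4 in DG and 8.96 in STR, and it replaced Kcnd2 as the leading Kv4 gene in OB. OB minus STR was 2.45 ± 0.51, directly and bridged (limma adjusted p = 0.164). Kcnip1 was at 4.65 and 5.42 FPKM in the SVZ pair, 38.0 in OB, 5.52 in DG and 5.28 in STR, so OB stood alone. Kcnip2 was at 159 and 100.1 FPKM in the SVZ pair, 80.8 in OB, 91.7 in DG and 151 in STR, with OB and DG below both SVZ samples and STR between them. Kcne1l, a MinK-related auxiliary subunit, was at 11.9 and 10.5 FPKM in the SVZ pair, 12.2 in OB, 3.46 in DG and 5.43 in STR.

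The M-current, carried by Kcnq channels, damps repetitive firing. Kcnq3 was at 16.1 and 14.3 FPKM in the SVZ pair, 7.60 in OB, 23.6 in DG and 31.7 in STR. Kcnq5 was at 26.4 and 33.7 FPKM in the SVZ pair, 7.69 in OB, 4.17 in DG and 31.7 in STR. The SVZ pair and STR lay together above OB and DG, and SVZ minus DG was 2.58 ± 0.47 (limma adjusted p = 0.109).

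The Kcnh genes encode the EAG, ERG and ELK channels, of which the ERG type passes current mainly as the cell repolarises. Their summed level was 239 FPKM in OB and 60.4 to 137 elsewhere, and SVZ samples 2 and 1 were the ends of that range. Kcnh2, an ERG gene, was at 12.9 and 6.08 FPKM in the SVZ pair, 57.8 in OB, 7.27 in DG and 5.42 in STR. OB minus STR was 3.19 ± 0.69 (limma adjusted p = 0.170) and 2.22 when bridged. The other ERG genes, Kcnh6 and Kcnh7, were also highest in OB, at 4.76 and 6.22 FPKM. Kcnh3, an ELK gene, was at 71.5 and 22.2 FPKM in the SVZ pair, 140 in OB, 46.4 in DG and 35.1 in STR. Its SVZ samples differed by 1.64 units, the widest gap among the 72 members, and OB minus STR moved from 1.96 ± 0.93 to 0.32 when bridged. Kcnh4, another ELK gene, was at 21.97 and 9.75 FPKM in the SVZ pair, 6.02 in OB, 2.30 in DG and 15.98 in STR, and DG minus STR was -2.36 ± 0.72, or -3.46 when bridged. Both DG and OB lay below each SVZ sample and STR.

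Inward rectifiers of the G protein-gated group (GIRK) slow firing when receptors such as those for GABA or serotonin are active. Kcnj3 was at 5.62 and 4.80 FPKM in the SVZ pair, 50.3 in OB, 49.6 in DG and 5.10 in STR. OB and DG were level and far above the rest, and OB minus STR was 3.07 ± 0.52 and DG minus STR 3.05 ± 0.52 (limma adjusted p = 0.125 and 0.148). Kcnj6 was at 0.557 and 0.946 FPKM in the SVZ pair, 16.6 in OB, 48.4 in DG and 0.992 in STR. SVZ minus DG was -4.83 ± 0.44, with a limma adjusted p of 0.0417 that ranged from 0.00871 to 0.274 over the alternatives, and both SVZ samples lay far below DG. Kcnj9 was at 12.5 and 8.23 FPKM in the SVZ pair, 26.1 in OB, 40.7 in DG and 11.2 in STR. The 3 GIRK genes therefore shared a profile of OB and DG above the SVZ pair and STR, while Kcnj5, the remaining GIRK gene, never passed 0.892 FPKM. The 4 markers of cortical and hippocampal excitatory neurons summed to 465 FPKM in OB, 1072 in DG and 2.88 to 26.9 in the SVZ pair and STR, with none at 0. In OB, 453 of that sum was Slc17a7. Neurod2 and Tbr1 were also higher in OB than in the SVZ pair and STR. Neurod6 was not, at 0.797 FPKM in OB, 1.08 in SVZ sample 2 and 2.49 in STR. The part of these excitatory neurons in the GIRK levels was not tested.

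The strong rectifiers of the Kir2 group, which hold cells near rest, differed among themselves. Kcnj4 was at 154 and 77.1 FPKM in the SVZ pair, 200 in OB, 76.9 in DG and 86.1 in STR, with the SVZ samples 0.99 units apart. Kcnj2 was at 15.2 and 21.1 FPKM in the SVZ pair, 3.98 in OB, 6.12 in DG and 25.6 in STR, so OB and DG were both low. OB minus STR was -2.41 ± 0.56 (limma adjusted p = 0.187) and -1.97 when bridged. Kcnj12 was at 6.68 and 4.66 FPKM in the SVZ pair, 12.3 in OB, 1.05 in DG and 5.12 in STR. The glial rectifiers were highest in OB. Kcnj10, the main potassium buffering channel of astrocytes, was at 42.6 and 50.1 FPKM in the SVZ pair, 115 in OB, 39.8 in DG and 57.7 in STR. Kcnj16, its partner subunit, was at 4.32 and 4.58 FPKM in the SVZ pair, 12.9 in OB, 4.32 in DG and 4.62 in STR. The 6 astrocyte markers summed to 845 to 1047 FPKM over the 5 libraries, highest in DG, and 888 in OB. They did not move together. Gfap, Slc1a3 and Aldh1l1 were highest in OB, at 278, 237 and 41.1 FPKM. Slc1a2 was lowest in OB, at 163 FPKM, while Aqp4 was highest in DG and Gja1 in SVZ sample 1. Their part in the Kcnj10 and Kcnj16 levels was not tested. Kcnj16 and Kcnj2 are neighbours on mm9, at chr11:110829347-110889281 and chr11:110927478-110938139. OB was the highest library for Kcnj16 and the lowest for Kcnj2, while DG was low for Kcnj2 and level with the SVZ pair and STR for Kcnj16.

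The ATP-sensitive rectifier gene Kcnj11 was at 18.7 and 11.8 FPKM in the SVZ pair, 17.2 in OB, 31.3 in DG and 16.1 in STR. Its regulatory partner Abcc8, the sulfonylurea receptor, was at 5.34 and 2.51 FPKM in the SVZ pair, 5.84 in OB, 33.4 in DG and 4.66 in STR. DG was highest for both genes.

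Leak channels of the K2P family included a member high in OB alone. Kcnk15, an acid-sensitive relative that carries little current by itself in expression systems, was listed at 0 in SVZ sample 1 and in DG and was at 0.108 FPKM in SVZ sample 2, 16.4 in OB and 0.0616 in STR. SVZ minus OB was -4.05 ± 0.29, with a limma adjusted p of 0.0374 that ranged from 0.00715 to 0.152 over the alternatives, and both SVZ samples lay below OB. OB minus DG was 4.12 ± 0.34 (limma adjusted p = 0.0490, range 0.00959 to 0.154), a value that depends on the pseudocount because DG is listed at 0. Kcnk15 passed the filter on the mean through OB alone, so these tests rest on the library that admitted it. Kcnk12 was at 1.89 and 0.622 FPKM in the SVZ pair, 32.0 in OB, 8.76 in DG and 0.935 in STR. Its closest relative Kcnk13 was at 4.51 and 3.72 FPKM in the SVZ pair, 11.8 in OB, 2.02 in DG and 3.81 in STR. Kcnk3, an acid-sensitive leak channel, was at 4.29 and 2.23 FPKM in the SVZ pair, 22.6 in OB, 3.90 in DG and 2.14 in STR. All 4 were at least 1 unit higher in OB than in each other region, directly and bridged. Kcnk2, a leak channel opened by stretch and lipids, was instead at 53.9 and 53.1 FPKM in the SVZ pair, 18.1 in OB, 23.4 in DG and 81.4 in STR. Kcnk1 was at 53.0 and 38.4 FPKM in the SVZ pair, 50.2 in OB, 103 in DG and 57.3 in STR, and it held 69.5% of the summed K2P level of DG.

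Among channels gated by intracellular ions, the BK pore gene Kcnma1 was nearly level, at 13.5 and 13.4 FPKM in the SVZ pair, 21.0 in OB, 15.7 in DG and 16.9 in STR, while its beta subunits were not. Kcnmb4, the main neuronal beta subunit, was at 32.0 and 18.4 FPKM in the SVZ pair, 56.9 in OB, 84.8 in DG and 23.1 in STR. Kcnmb1, the beta subunit of smooth muscle, was at 5.95 and 3.16 FPKM in the SVZ pair, 0.263 in OB, 0.136 in DG and 0.164 in STR. Both SVZ samples lay above every other library, and SVZ minus STR was 2.21 ± 0.43 (limma adjusted p = 0.454), the largest difference of that pair among the 72 members. The mural cell marker Acta2 moved with it, at 30.5 and 13.7 FPKM in the SVZ pair and 6.62 to 8.14 elsewhere, but all 5 mural markers together summed to 97.9 and 63.1 FPKM in the SVZ pair, 179 in OB, 62.3 in DG and 65.8 in STR, with none at 0. Their part in the Kcnmb1 level was not tested. Kcnmb1 passed the filter on the mean through the SVZ pair alone, so its test rests on the samples that admitted it.

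The SK gene Kcnn2, whose channel shapes the afterhyperpolarisation, was at 29.5 and 21.4 FPKM in the SVZ pair, 27.8 in OB, 39.0 in DG and 16.4 in STR. Kcnn3 was at 15.4 and 15.3 FPKM in the SVZ pair, 5.46 in OB, 4.98 in DG and 11.2 in STR. The sodium-activated channels traded places in DG. Kcnt1 was at 61.9 and 28.3 FPKM in the SVZ pair, 45.8 in OB, 5.88 in DG and 48.1 in STR, and Kcnt2 was at 1.98 and 2.16 FPKM in the SVZ pair, 0.924 in OB, 9.47 in DG and 2.69 in STR. Kcnt2 held 61.7% of their summed level in DG, where Kcnt1 held 94.7% to 98.0% in the other regions. DG minus STR was -2.83 ± 0.72 for Kcnt1 and OB minus DG was -2.44 ± 0.44 for Kcnt2 (limma adjusted p = 0.261 and 0.129).

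**Figure D3:**
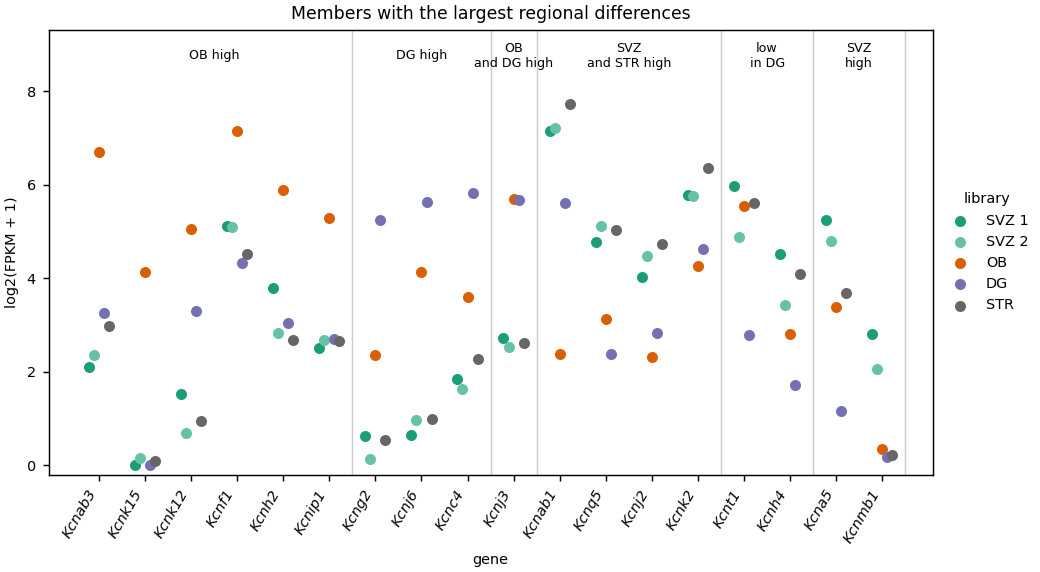
Level of 18 members in each library, as log2(FPKM + 1), grouped by the region or regions where they are high or low; the points of a gene are the 5 libraries. Kcnk15 reaches 16.4 FPKM in OB and no more than 0.108 elsewhere, and Kcnj3 is level in OB and DG at 50.3 and 49.6 FPKM.

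Seen by region, 15 of the 72 members (20.8%) were at least 1 unit higher in OB than in each other region, beside 6.58% of reference genes. They were Kcnab3, Kcnb2, Kcnf1, Kcnh2, Kcnh3, Kcnh5, Kcnh6, Kcnip1, Kcnj12, Kcnj16, Kcnk3, Kcnk12, Kcnk13, Kcnk15 and Kcnn4. Bridging left 12 of them and added Kcnj10, which made 13 beside 4.92% of reference genes, and Kcnh3, Kcnj12 and Kcnn4 dropped out. Markers of several cell types were also highest in OB. Each of the 5 olfactory bulb neuron markers was, with Eomes and Tbx21 listed at 0 in STR and Calb2 and Cdhr1 at 7.72 and 8.28 FPKM in DG. The 4 markers of olfactory sensory axons and ensheathing glia summed to 902 FPKM in OB and to 69.7 to 112 elsewhere, with S100a5 listed at 0 outside OB. The 4 meningeal fibroblast markers summed to 48.3 FPKM in OB and to 3.62 to 13.8 elsewhere, with none at 0. Dcn, Col1a1 and Col1a2 were highest in OB, while Lum was highest in DG, at 3.41 FPKM against 1.24 in OB. The part of these cells in the OB levels was not tested. Kcna1, Kcnab1, Kcng3 and Kcns1 (5.56%) were as far lower in OB than in each other region, beside 1.08%, and bridging kept these and added Kcng1, beside 1.23%. In DG, 8 members (11.1%) were higher than in each other region, beside 2.78%, among them Kcnab2, Kcnc4, Kcng1, Kcng2, Kcnj6, Kcnk4 and Kcnt2. Bridging kept 6 of them, beside 2.42%, and dropped Kcnab2 and Kcng1. The 4 granule neuron markers summed to 493 FPKM in DG and to 6.20 to 127 elsewhere, none at 0. Prox1, C1ql2 and Dsp were highest in DG, while Calb1 was at 111 FPKM in DG and 124 in STR, its highest library. The part of granule neurons in the DG levels was not tested. Kcna5, Kcnh4, Kcnj12 and Kcnt1 (5.56%) were lower in DG than in each other region, beside 2.39%, and stayed so when bridged, beside 3.3%. In the SVZ, Kcna5 and Kcnmb1 (2.78%) were higher than in each other region, beside 1.7% directly and 1.81% bridged. The 4 ependymal markers were high in the same libraries, with the sums given above and Tmem212 listed at 0 in STR, and their part in the Kcna5 and Kcnmb1 levels was not tested. The striatum had no member higher and none lower than every other region, beside 1.2% and 1.68%, nor when bridged, beside 0.513% and 0.282%. The filter on the mean admitted Kcnk15, Kcnh6 and Kcnn4 through OB, Kcnk4 through DG and Kcnmb1 through the SVZ, where each was high. The counts of higher members therefore rest partly on that filter, as do the shares of reference genes.

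**Figure D4:**
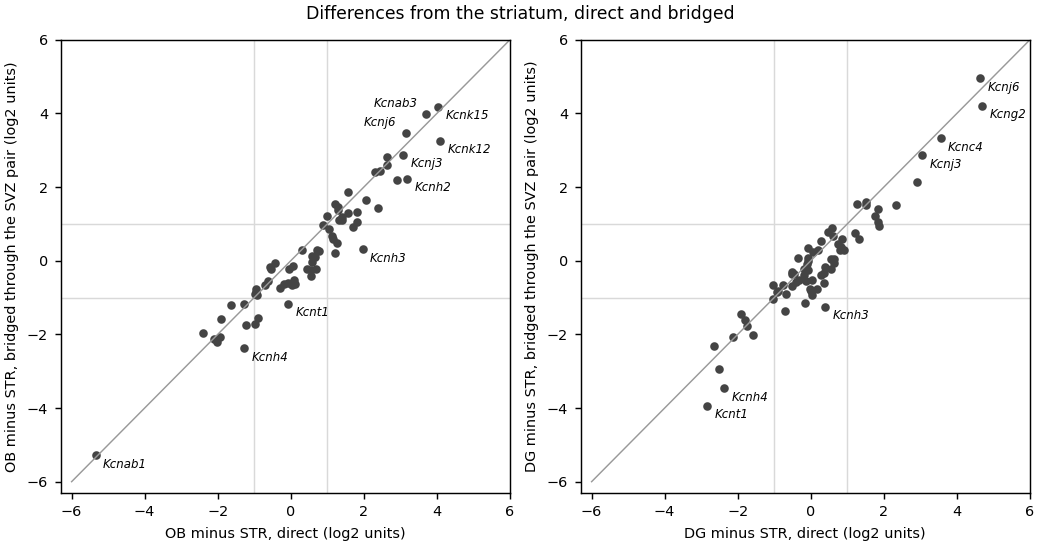
Difference of OB (left) and DG (right) from STR for the 72 members, taken directly (horizontal axis) and through the SVZ pair (vertical axis), both in log2 units; grey lines mark 1 unit and the diagonal marks equal values. Kcnab1 lies on the diagonal at -5.34 and -5.29 in OB, while Kcnh3 lies at 1.96 directly and at 0.32 when bridged.

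The promoters of Kcnk15, Kcnc4 and Kcnmb1, which were highest in OB, DG and the SVZ, are printed as examples chosen after their values were seen. RefSeq promoter entries on GRCm38.p6 were found for 68 of the 92 genes, 93 promoters in all. The printed stretch is the 250 bases before the annotated start, with every searched motif in capitals. A TATA box spelled TATAAA, a GC box spelled GGGCGG and a cAMP response element spelled TGACGTCA were searched on both strands. The shorter core TGACG, which the full element contains, was searched in the same way. So were an E-box spelled CAGATG and another spelled CAGCTG. Kcnk15, confined to OB, has its promoter at chr2:163853500-163853749 on the plus strand, with 17 CpG dinucleotides and 65.2% GC. Kcnc4, highest in DG, has its promoter at chr3:107458899-107459148 on the minus strand, with 12 CpG and 68% GC. Kcnmb1, highest in the SVZ, has its promoter at chr11:33962763-33963012 on the plus strand, with 1 CpG and 50.8% GC.
Kcnk15: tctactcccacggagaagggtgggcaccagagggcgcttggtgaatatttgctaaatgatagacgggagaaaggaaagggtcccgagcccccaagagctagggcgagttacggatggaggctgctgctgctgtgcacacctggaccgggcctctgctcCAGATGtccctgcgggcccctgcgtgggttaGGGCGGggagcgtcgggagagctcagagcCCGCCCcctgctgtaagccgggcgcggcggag
Kcnc4: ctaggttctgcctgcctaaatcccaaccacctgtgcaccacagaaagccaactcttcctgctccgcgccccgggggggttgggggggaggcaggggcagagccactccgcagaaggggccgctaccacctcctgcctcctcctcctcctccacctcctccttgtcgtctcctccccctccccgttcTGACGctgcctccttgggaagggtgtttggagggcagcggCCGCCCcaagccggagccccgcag
Kcnmb1: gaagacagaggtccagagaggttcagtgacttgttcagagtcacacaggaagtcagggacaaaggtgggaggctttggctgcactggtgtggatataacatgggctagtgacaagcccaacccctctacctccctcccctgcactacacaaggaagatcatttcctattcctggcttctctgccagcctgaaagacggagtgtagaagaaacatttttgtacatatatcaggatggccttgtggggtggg

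The Kcnk15 promoter holds 2 GC boxes, whose first bases lie at -61 and -32 counted back from the start, and an E-box CAGATG at -92. The Kcnc4 promoter holds a GC box at -24 and a cAMP response core at -64, and the Kcnmb1 promoter holds none of these letters. A GC box was found in 45.2% of member promoters and 32.7% of all 32851 promoters, a TATA box in 3.23% and 12.4%, and a cAMP response core in 15.1% and 17.8%. The E-box CAGCTG was found in 23.7% and 13%, the E-box CAGATG in 15.1% and 14.4%, and the full cAMP response element in 0% and 1.55%. The median promoter had 7 CpG among the members and 6 among all. These are matches of letters and say nothing about binding.

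Some levels rest on transcripts that overlap others. The sources used here do not say whether the libraries kept strand, so reads of a member and of a catalogue lncRNA on the opposite strand cannot be told apart. An lncRNA of 4312 bases on the strand opposite Kcnj3, at mm9 chr2:55285925-55290271, was at 1.15 and 0.947 FPKM in the SVZ pair, 12.6 in OB, 14.8 in DG and 1.23 in STR, with OB and DG above the rest as for Kcnj3. An lncRNA opposite Kcnab3, at chr11:69143327-69145624, was at 0.513 and 0.767 FPKM in the SVZ pair, 5.10 in OB and 1.28 in STR and was listed at 0 in DG. Another, on the same strand as Kcng2 and inside its deposited locus, was at 11.04 FPKM in DG and at most 0.475 elsewhere. Each of these 3 loci was high where its channel gene was high, but they are examples, and other lncRNAs in member loci did not follow. An lncRNA of 326 bases opposite Kcnip4 was listed at 0 in DG, where Kcnip4 was highest at 30.5 FPKM. An lncRNA opposite Kcnh7 was at 0.0242 FPKM in OB, where Kcnh7 was highest at 6.22 FPKM. Kcnmb1 and Kcnip1 share a deposited locus with Lcp2, chr11:33529341-33998554, and had different profiles.

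Transcript variants differed between the SVZ replicates as well as between regions. Of the Kcnip2 transcripts, the one of 813 bases was at 95.7 and 16.9 FPKM in the SVZ pair, 30.7 in OB, 60.5 in DG and 30.8 in STR, and the one of 663 bases was at 62.2 and 75.2 in the SVZ pair, 50.1 in OB, 23.1 in DG and 116 in STR. The SVZ samples disagreed on which variant led. Of the Kcnd3 transcripts, the one of 7169 bases was at 9.73 and 12.4 FPKM in the SVZ pair, 29.4 in OB, 19.2 in DG and 8.61 in STR, and the one of 1968 bases was at 2.998 and 0.281 in the SVZ pair, 24.0 in OB, 8.28 in DG and 0.351 in STR. The longer Kcnd3 transcript alone kept OB highest.

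Proteins that bind or anchor these channels were taken from a list of 27 genes, of which 25 were tested. Counting at least 1 unit, 4 (16%) stood higher and 4 (16%) lower in OB than in STR, beside 29.8% and 7.36% of reference genes. In DG against STR, 3 (12%) stood higher and 7 (28%) lower, beside 16.7% and 8.7%. In the SVZ against STR, 1 (4%) stood higher and none lower, beside 6.03% and 1.64%. In the SVZ against OB, 2 (8%) stood higher and 3 (12%) lower, beside 7.15% and 14.5%, and in the SVZ against DG 3 (12%) each way, beside 10.5% and 7.8%. In OB against DG, 4 (16%) stood higher and 4 (16%) lower, beside 13.4% and 5.08%. limma called none of them in any pair, and between 1 and 6 had an unadjusted p under 0.05. Lrrc55, an auxiliary subunit of BK channels, was at 3.66 and 3.78 FPKM in the SVZ pair, 49.0 in OB, 5.86 in DG and 5.51 in STR. Dpp10, an auxiliary subunit of Kv4 channels, was at 28.8 and 23.1 FPKM in the SVZ pair, 46.1 in OB, 3.64 in DG and 9.89 in STR. Amigo1, a partner of Kv2 channels, was at 22.6 and 17.9 FPKM in the SVZ pair, 69.8 in OB, 40.5 in DG and 19.9 in STR. For each of these 3 partners OB was the highest library. Others went the other way. Lgi1, a secreted protein that binds the Kv1 complex, was at 32.1 and 38.9 FPKM in the SVZ pair, 14.5 in OB, 70.6 in DG and 54.5 in STR. Nedd4l, a ubiquitin ligase, was at 62.2 and 47.6 FPKM in the SVZ pair, 17.2 in OB, 66.2 in DG and 52.6 in STR. OB was the highest library for 7 of the 25 tested partners and the lowest for 6.

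The members' transcripts were richer in G and C than most, with a median of 54.0% against 50.7% over reference genes. Between the SVZ replicates, the difference of sample 1 from sample 2 had a Spearman rho with GC content of 0.605 across the 72 members and 0.718 across 13145 genes. Those are correlations across genes of the same libraries, given as a description. For OB minus STR rho was 0.374 across the members and 0.230 when bridged, and for DG minus STR it was 0.371 and 0.166. Across the 13145 genes rho was 0.5725 for OB minus STR and 0.2417 when bridged. For DG minus STR it was 0.4546 across those genes and -0.0314 when bridged. The SVZ samples differed by -0.44 to 1.64 units over the members, with Kcnh3, Kcnh4 and Kcnt1 more than 1 unit apart. These 3 genes, at 61.2%, 59.3% and 56.4% GC, all read higher in sample 1, and the part of base composition in their regional differences was not tested.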

How the data were processed

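Poly(A) RNA of 5 libraries was analysed from the authors' deposited table of FPKM values per transcript, with coordinates on mm9. Per the submitters' processing notes, which assign no roles, the tools were CASAVA, TopHat 1.2.0 and Cufflinks 1.0.0. FPKM values carry no read counts, so depth is unknown and counting error cannot be stated. A gene listed at 0 may be a failed estimate. Transcripts were summed by symbol in Python 3.11.15. Genes at a mean of 1 FPKM or more over the 4 regions were compared on log2(FPKM + 1) with limma 3.58.1 (eBayes with trend, R 4.3.3), two-sided, and the script was tested on simulated data. A threshold of 1 log2 unit was used for counts by size.

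The members and lists were chosen with earlier results of these data known. Named members were, in each of the 6 pairs, the 4 largest differences each way at 5 FPKM or more in the higher region and with 1 direction in both SVZ samples and when bridged, the highest of each subfamily and the 10 highest means, 39 in all, not all of them reported. Other members are examples chosen after their values were seen. The antisense transcript Kcnq1ot1 is no channel gene and was left out, and some genes matching the pattern are not reported here by name, though 4 of them count toward the totals. Promoters are RefSeq entries on GRCm38.p6, and GC content was taken from GENCODE M21 transcripts. A deposited locus is the span of overlapping transcripts and can be wider than the gene. The alternatives were other pseudocounts, filters, scalings, the top transcript, each SVZ sample alone and bridging. Bridging the counts of region-specific members was added after seeing the data.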

Additional observations from a re-analysis of the deposited data

How the results depend on the processing

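The number of members at least 1 log2 unit apart stayed within 1.5 times its value under every alternative run in 5 of the 6 pairs. For SVZ minus STR it was 7, and it became 11 with a pseudocount of 0.1 and 4 among genes at a mean of 5 FPKM or more. The limma counts were less stable. With a pseudocount of 0.1 the called genes numbered 0 for DG minus STR, SVZ minus OB and OB minus DG and 53 for SVZ minus DG. Without a filter on low values, and again without the variance trend, they numbered 0 in all of these pairs. After median ratio scaling they numbered 292 for OB minus STR, 290 for DG minus STR, 654 for SVZ minus OB, 693 for SVZ minus DG and 358 for OB minus DG. The cause was not tested. The differences of the named members kept their direction wherever they were at least 1 unit. For members named by the size of a difference, 1 direction in both SVZ samples and when bridged was a condition of naming. That part of the result was therefore fixed in advance. Bridging shifts OB minus STR and DG minus STR of a gene by the same gap, that between its SVZ samples. When bridged, 26 of 76 differences moved by more than the SVZ spread, and each gene counts in both pairs. Without either SVZ sample no residual degree of freedom is left, so those values have no test. No paired analysis was possible because only the SVZ has a replicate number above 1 and the other regions have 1 sample each. With 1 sample in 3 of the 4 regions, and no counts, the data cannot separate a region from its library.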
